A study of Homo sapiens with 6 samples.

Results

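Binding of estrogen receptor alpha (ERα) was described at 10 genes of epithelial identity and cell junctions: GRHL1, GRHL2, ELF3, EHF, ESRP1, ESRP2, RAB25, CDH1, EPCAM and CLDN4. A peak belonged to a gene when its summit lay inside the gene's span or within 25 kb of it (RefSeq spans, GRCh38.p14). By that rule 507 of the 690548 peaks in 6 lists were assigned, and they merged into 113 of 175206 regions, where peaks of any list that shared at least 1 bp were joined. The genes were 10 of 19974 protein-coding genes. The data are chromatin immunoprecipitation followed by sequencing (ChIP-seq) from MDA-MB-453 cells, a human breast cancer cell line with androgen receptor. The cells carried a doxycycline-inducible gene for wild-type ERα, for Y537S, a ligand-binding domain substitution known for hormone-independent activity, or for K303R, a substitution in the hinge. All 6 groups were grown in medium with 10% fetal bovine serum and then for 2 days with 2 µg/mL doxycycline, either without added hormone or with 1 nM estradiol (E2). Each group has 1 library, made from 2 plates of cells with the antibody D8H8, so no difference below has a replicate check. The labels state neither a hormone-stripped serum nor whether each line is 1 clone or a pool. Cells without doxycycline were not analysed here, so the signal of the antibody without induced receptor is not known.

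These genes act at different levels of the epithelial state. GRHL1 and GRHL2 are Grainyhead-like transcription factors, and GRHL2 is known to activate CDH1 and claudin genes and to bind many of the same enhancers as ERα in breast cancer cells. ELF3 and EHF are epithelial ETS factors that bind GGAA sequences. ESRP1 and ESRP2 direct the epithelial pattern of alternative splicing, and RAB25 is a small GTPase of recycling endosomes in epithelial cells. CDH1 encodes E-cadherin, the adhesion protein of adherens junctions, EPCAM a cell-surface adhesion molecule, and CLDN4 a tight junction claudin. ERα binds DNA at the estrogen response element, a palindrome of GGTCA and TGACC separated by 3 bases, most often in enhancers at a distance from genes.

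Peaks lay near 5 listed start sites of member genes whose promoter sequence was taken from RefSeq (GRCh38.p14), and these are shown because they are the promoters at which ERα was listed. Each line gives the 250 bases before the start, 5′ to 3′ on the plus strand, which is the strand of all 4 genes. Capitals mark matches to the motifs searched. A summit lay within 1 kb of the start in all 6 libraries at GRHL1 (chr2:9951443-9951692), ELF3 (chr1:202010337-202010586), the downstream EHF start (chr11:34632316-34632565) and CLDN4 (chr7:73830746-73830995), and in 2 libraries at the upstream EHF start (chr11:34624007-34624256).
GRHL1: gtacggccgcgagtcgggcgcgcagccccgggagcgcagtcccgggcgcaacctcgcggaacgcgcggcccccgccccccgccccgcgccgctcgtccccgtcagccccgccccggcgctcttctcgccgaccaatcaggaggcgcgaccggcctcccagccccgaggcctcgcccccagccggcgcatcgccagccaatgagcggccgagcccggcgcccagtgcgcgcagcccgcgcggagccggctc
ELF3: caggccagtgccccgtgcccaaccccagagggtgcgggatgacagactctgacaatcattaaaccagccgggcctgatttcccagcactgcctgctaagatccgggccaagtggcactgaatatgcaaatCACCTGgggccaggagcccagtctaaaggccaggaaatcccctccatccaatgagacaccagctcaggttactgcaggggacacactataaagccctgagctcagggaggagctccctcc
EHF, upstream start: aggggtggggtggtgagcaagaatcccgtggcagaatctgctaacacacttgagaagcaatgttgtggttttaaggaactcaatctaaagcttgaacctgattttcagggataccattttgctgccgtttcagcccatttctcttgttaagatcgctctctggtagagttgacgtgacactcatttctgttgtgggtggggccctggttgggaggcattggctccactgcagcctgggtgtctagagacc
EHF, downstream start: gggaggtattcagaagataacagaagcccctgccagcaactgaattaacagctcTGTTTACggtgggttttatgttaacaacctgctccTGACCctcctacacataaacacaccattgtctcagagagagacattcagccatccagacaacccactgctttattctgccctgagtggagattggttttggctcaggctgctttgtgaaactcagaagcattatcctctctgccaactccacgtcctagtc
CLDN4: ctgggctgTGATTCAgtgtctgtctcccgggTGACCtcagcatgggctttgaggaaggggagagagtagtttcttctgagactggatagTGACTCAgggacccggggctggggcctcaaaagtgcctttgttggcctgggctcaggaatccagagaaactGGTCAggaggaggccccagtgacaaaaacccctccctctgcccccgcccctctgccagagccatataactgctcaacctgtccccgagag

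None of these 5 sequences holds the whole estrogen response element, which 0.0402% of 34788 RefSeq promoters of the same length hold. A single arm of it, GGTCA, searched on both strands and found in 32.6% of all promoters, occurs at the downstream EHF start, as TGACC at position -161 counted from that start, and at CLDN4, as TGACC at -219 and GGTCA at -90. CLDN4 also holds 2 matches to the AP-1 motif TGANTCA, at positions -242 and -161 (6.59% of all promoters hold one). ELF3 has the E-box CACCTG, the sequence bound by ZEB and SNAI repressors, at position -120 (17.5% of all promoters), and the downstream EHF start has the FOXA motif TGTTTAC at -196 (2.98%). The GRHL motifs AACCGGTT (0.115% of all promoters) and AACNNGTT (3.0%) were not found in the 5 sequences. GRHL1 and the upstream EHF start hold no match at all, and the GRHL1 sequence is 81.6% G and C beside a median of 58% over all promoters. Summits fell inside the 250 bases in 4 libraries at ELF3, in 4 at CLDN4 and in 1 at the upstream EHF start. A match describes letters and is not a bound site. The RAB25 promoter had no summit within 1 kb, and GRHL2, ESRP1, ESRP2, CDH1 and EPCAM are named without a sequence.

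Every library had peaks at all 10 genes, where 89.0% to 90.8% of protein-coding genes had one (90.7% and 90.1% in wild type without and with E2, 90.8% and 89.7% in Y537S, 89.4% and 89.0% in K303R). The member peaks numbered 94 and 88 in wild type without and with E2, 80 and 83 in Y537S, and 83 and 79 in K303R. With E2 the number changed by -6, 3 and -4 in the 3 lines, with no common direction (exact 2-sided sign-flip test, p = 0.5, where the smallest p possible is 0.25). The deposited lists do not give read totals, but the number of fragments at each summit could be recovered from the fold and the p-value that they give. The median over all peaks was 23 to 30 fragments per library, and over the member peaks 41 to 54. Of the 113 regions, 61 (54.0%) were in all 6 lists beside 38.7% of all regions, and 16 (14.2%) were in 1 list beside 21.7%. Those 16 were weak, with a median of 15 and at most 33 fragments. At the edge of the 25 kb window, the outermost member peaks belonged to a region 23618 to 23626 bp from CDH1 with 126 to 146 fragments, and the nearest peaks left out lay 25578 to 25586 bp from GRHL2 with 260 to 307 fragments.

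**Figure D1:**
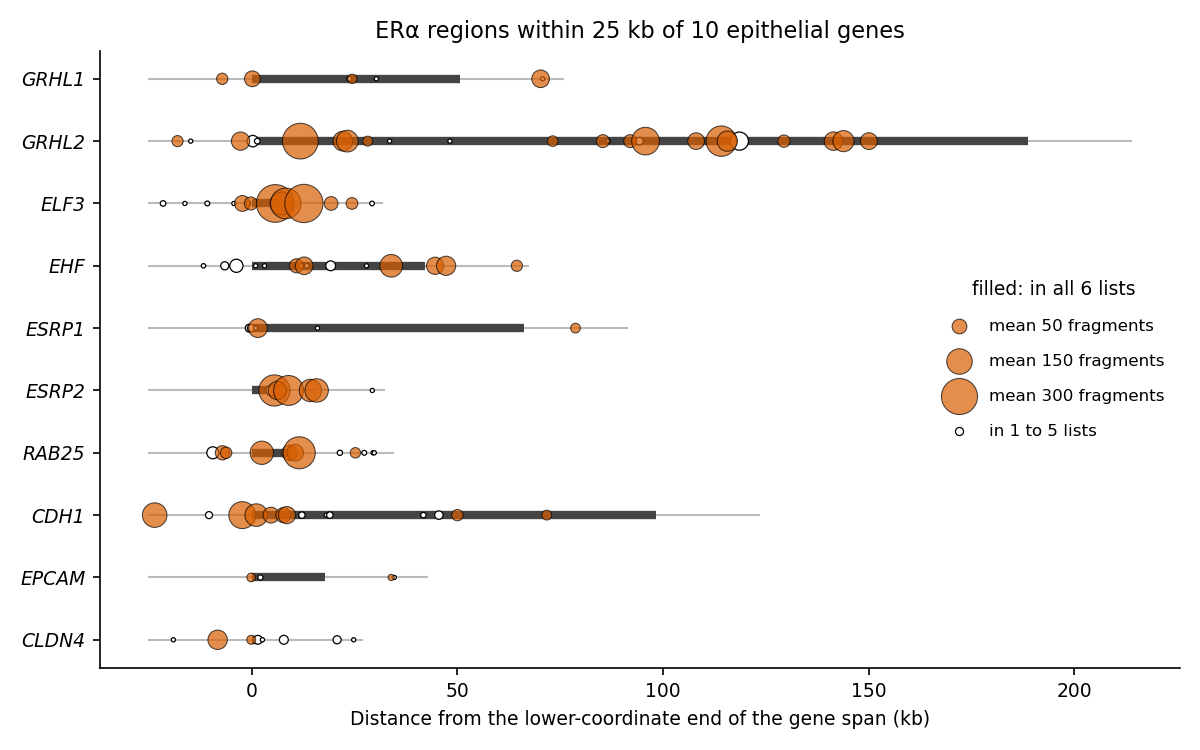
Positions of the 113 merged ERα regions at the 10 genes. The x axis is the distance in kb from the lower-coordinate end of each gene's span (thick bar), the thin line is the 25 kb window on each side, circle area scales with the mean number of summit fragments, and filled circles are the 61 regions in all 6 lists. GRHL2 holds 25 regions spread along its span, the large ELF3 regions cluster around its short span, and the 4 EPCAM regions are small.

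Strong binding was found at GRHL2, ELF3, RAB25 and CDH1 in all 6 libraries, taking as strong the 10000 peaks of a library with the highest -log10 p. For RAB25 in both wild-type libraries and in K303R with E2, the only strong peak lay inside the neighbouring gene MEX3A. For CDH1 in Y537S without E2, the only strong peak lay inside the neighbouring gene CDH3. With a 10 kb window that library had 3 member genes near a strong peak. ESRP2 had a strong peak in 3 libraries: wild type without E2, with 1, and both K303R libraries, with 2 each. GRHL1, EHF, ESRP1, EPCAM and CLDN4 had none in any library. The member genes near a strong peak were thus 5 and 4 in wild type without and with E2 (29.7% of all protein-coding genes in each), 4 and 4 in Y537S (31.7% and 31.5%), and 5 and 5 in K303R (32.1% and 32.0%). The weakest strong peak had a -log10 p of 83.7 in K303R without E2 and of 105 to 129 in the other libraries. The strong member peaks numbered 9 and 8 in wild type (9.57% and 9.09% of member peaks, beside 7.95% and 8.22% of all peaks). They numbered 8 and 9 in Y537S (10% and 10.8%, beside 8.53% and 8.89%), and 12 and 11 in K303R (14.5% and 13.9%, beside 9.42% and 9.33%). GRHL2 held 3 of these in each wild-type and Y537S library and 4 in each K303R library, the most of the 10 genes, and ELF3 held 2 in each of the 6.

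The following paragraphs take the genes by role, first the transcription factors, then the splicing factors, then traffic and adhesion. Fragment numbers are raw counts at 1 base, the summit, and depend on the depth of the library: over the 33626 regions that were in all 6 lists with a mean of at least 50 fragments (called well covered here), the medians were 100 and 102 in wild type without and with E2, 99 and 112 in Y537S, and 73 and 90 in K303R. A ratio between 2 libraries was therefore divided by the ratio of these medians, so that 1 means the same strength relative to the library's median region. Printed intervals are exact 95% intervals that cover counting error only. Of the 113 member regions, 39 (34.5%) were well covered, beside 19.2% of all regions. Regions are numbered along each gene in order of coordinate.

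GRHL2, on chromosome 8 (8:101492439-101681200), carried the most regions of the 10 genes, 25, of which 22 lay inside its span and 11 were well covered. Its strongest, region 6 (8:101503910-101504935, inside the span), had 280 and 294 fragments in wild type without and with E2, 276 and 280 in Y537S, and 308 and 325 in K303R. It ranked between 138 and 579 by p-value in the 6 lists, and its 6 values lay between 276 and 325 fragments. Regions 17 and 19, both inside the span, were the next strongest. Region 17 (8:101587897-101588564) had wild-type counts of 187 and 220 fragments, with 185 and 193 in Y537S and 127 and 144 in K303R. Region 19 (8:101606335-101606950) had 211 and 212 in wild type, 205 and 192 in Y537S, and 214 and 243 in K303R. At the lower-coordinate end of the gene, region 4 (8:101492225-101492903) was listed in wild type with 44 and 31 fragments and in K303R with 61 and 46, and in neither Y537S list. Region 21 (8:101610828-101611319) was absent from the Y537S list without E2 and had 41 fragments with E2, beside 101 and 69 in wild type and 116 and 129 in K303R.

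**Figure D2:**
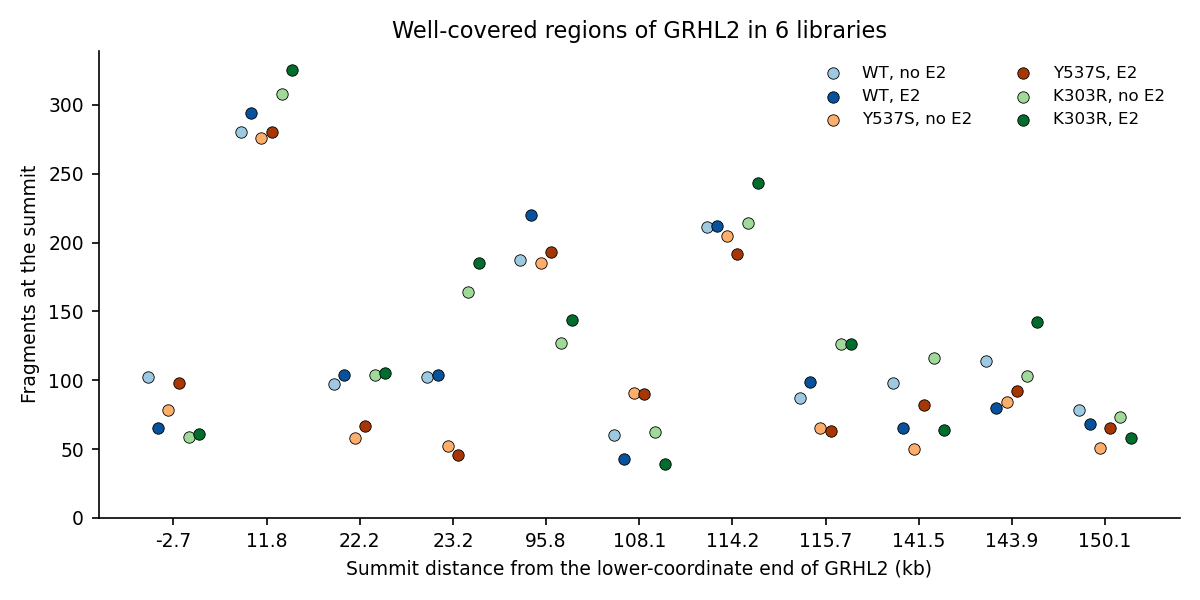
Raw summit fragments in the 6 libraries (y axis) at the 11 well-covered regions of GRHL2, ordered along the x axis by summit distance in kb from the lower-coordinate end of the gene. At 23.2 kb (region 8) both K303R points (164 and 185) lie above and both Y537S points (52 and 46) below the wild-type points (102 and 104), while the 6 points at 11.8 kb (region 6) lie between 276 and 325.

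ELF3 (1:202010587-202017183) had the strongest regions of all 10 genes. Region 11 (1:202022976-202023588), which lies 6087 bp beyond the higher-coordinate end of the span and in no other protein-coding gene, had 353 and 339 fragments in wild type without and with E2, 318 and 324 in Y537S, and 336 and 354 in K303R. Region 8 (1:202016013-202016595), the only one inside the span, had 358 and 333 in wild type, 314 and 346 in Y537S, and 289 and 330 in K303R. Both ranked among the first 1801 peaks of every list. Between them, region 10 (1:202018380-202019096) had 189 to 236 fragments over a local background of 37.0 to 45.4, the number of fragments that the peak caller expected there, and ranked lower, between 10909 and 21257. At the listed start, region 7 (1:202010133-202010847) was weaker, with 47 and 34 fragments in wild type, 27 and 19 in Y537S, and 49 and 59 in K303R. Ahead of it, 2273 bp outside the span, region 5 (1:202008014-202008619) had 31 and 34 fragments in Y537S, beside 73 and 72 in wild type and 71 and 65 in K303R, so that both Y537S values lay below the other 4.

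EHF (11:34621093-34663288) had 15 regions, 4 of them well covered and none strong. Region 12 (11:34653821-34655331, inside the span) had the highest mean, with 129 and 139 fragments in wild type without and with E2, 114 and 104 in Y537S, and 99 and 121 in K303R; its summit moved by up to 695 bp between libraries, so these are not counts at 1 position. Region 6 (11:34631461-34632392), next to the downstream start whose sequence is shown above, had 51 and 43 in wild type, 54 and 41 in Y537S, and 39 and 45 in K303R, and the 3 lines overlapped. Region 8 (11:34633600-34634194), on the other side of that start, had 105 and 89 in wild type, 73 and 69 in Y537S, and 55 and 40 in K303R. Region 14 (11:34668110-34668715), 5075 bp beyond the span, had 90 and 88 in wild type, 46 and 59 in Y537S, and 109 and 116 in K303R. Region 5, 46 bp from the upstream start, was listed only in wild type, with 11 fragments in each library.

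GRHL1 (2:9951693-10002277) had 7 regions, of which 2 were well covered. Region 6 (2:10021629-10022242), 19666 bp beyond the span, had 98 and 95 fragments in wild type without and with E2, 86 and 81 in Y537S, and 29 and 40 in K303R, so that both K303R values lay below the other 4. Region 2 (2:9950843-9952593), over the start whose GC-rich sequence is shown above, had 56 and 36 in wild type, 61 and 65 in Y537S, and 58 and 68 in K303R. Its summits spread over 719 bp between libraries, the widest of the 39 well-covered member regions. Over those 39 regions the median spread of the summits was 50 bp, and 30 (76.9%) stayed within 100 bp, beside a median of 52 bp and 89.4% over all well-covered regions.

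The 2 splicing factor genes differed in how much ERα was listed there. ESRP2 (16:68229033-68236127) had 8 regions, 5 of them well covered. Region 2 (16:68234142-68234973, inside the span) had 215 and 205 fragments in wild type without and with E2, 195 and 223 in Y537S, and 246 and 260 in K303R, over a local background of 22.8 to 30.5. Region 5 (16:68237664-68238212), 1852 bp beyond the span, had 205 and 204 in wild type, 187 and 205 in Y537S, and 197 and 239 in K303R. Farther out, region 6 (16:68242945-68243567) had 85 and 74 in wild type, 169 and 156 in Y537S, and 91 and 115 in K303R, with both Y537S values above the other 4. Regions 1 and 4, at 16:68233654-68233936 and 16:68236041-68236287, were listed only in Y537S, with 64 and 98 fragments at the first and 59 and 70 at the second. These were weak peaks over a local background of 23.3 to 26.7, with folds of 2.47 to 3.59 and ranks of 52645 to 86650. Regions 2 and 3, listed in all 6 libraries, lie between them. No other member region was listed in both Y537S libraries alone, and the share of all regions with that pattern was not counted.

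ESRP1, on chromosome 8 (8:94641174-94707466), had 6 regions, 1 of them well covered. That region 4 (8:94642350-94642994), inside the span near its lower-coordinate end, had 63 and 54 fragments in wild type without and with E2, 74 and 89 in Y537S, and 87 and 122 in K303R. The highest value was that of K303R with E2 and the lowest that of wild type with E2. Region 2, 154 bp from the end of the span, was listed in wild type with 24 and 22 fragments and in K303R without E2 with 34, and in no Y537S list.

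RAB25 (1:156061160-156070504) had 12 regions, 4 of them well covered. The strongest, region 7 (1:156072437-156073145), lies 2210 bp beyond the span and inside the span of the neighbouring gene MEX3A, so it cannot be assigned to RAB25 by position alone. It had 231 and 230 fragments in wild type without and with E2, 266 and 282 in Y537S, and 195 and 215 in K303R. Region 4 (1:156063312-156063991, inside RAB25 and 2445 bp from its listed start) had 113 and 87 in wild type, 168 and 174 in Y537S, and 103 and 105 in K303R. In both regions the raw Y537S values were above the other 4.

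CDH1 (16:68737292-68835537) had 14 regions, 6 of them well covered, and no called difference between libraries. Region 3 (16:68734562-68735277), 2303 bp outside the lower-coordinate end, had 168 and 187 fragments in wild type without and with E2, 139 and 188 in Y537S, and 152 and 172 in K303R. Region 4 (16:68738179-68738653), inside the span, had 100 and 111 in wild type, 117 and 142 in Y537S, and 106 and 132 in K303R. Region 1, in the span of the neighbouring cadherin gene CDH3, had 126 to 146 fragments. At regions 1 and 3 the values of all 6 libraries lay between 126 and 188.

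CLDN4 (7:73830996-73832690) and EPCAM (2:47369311-47387020) had no strong peak in any library. At CLDN4 the strongest of 8 regions, region 2 (7:73822280-73823106), lay 8305 bp outside the span, with 95 and 85 fragments in wild type without and with E2, 80 and 86 in Y537S, and 69 and 106 in K303R. Over the CLDN4 promoter shown above, region 3 had 16 and 27 in wild type, 16 and 8 in Y537S, and 23 and 20 in K303R. EPCAM had 4 regions and none was well covered; its strongest, region 1 (2:47368784-47370193) at the lower-coordinate end, had wild-type counts of 23 and 19 fragments, with 11 and 12 in Y537S and 21 and 17 in K303R. In each library this was below the median of all peaks, which was 23 to 30 fragments.

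**Figure D3:**
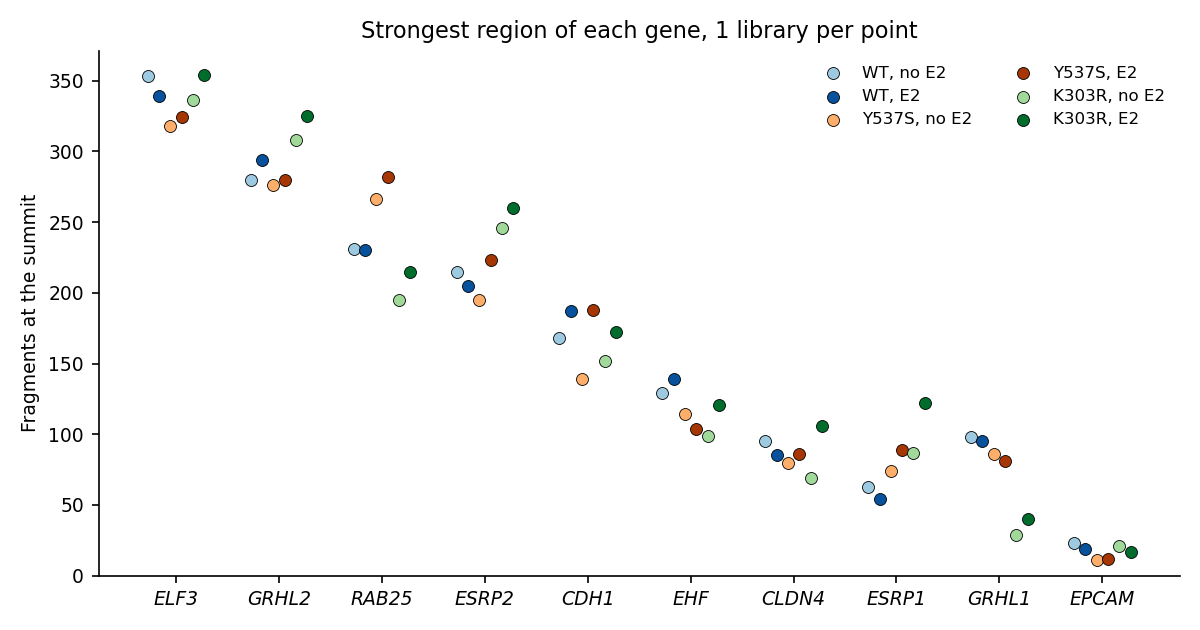
Raw summit fragments (y axis) at the strongest region of each of the 10 genes (x axis), 1 point per library. The genes range from 318 to 354 fragments at ELF3 to 11 to 23 at EPCAM; at RAB25 both Y537S points (266 and 282) are highest, and at GRHL1 both K303R points (29 and 40) are lowest.

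Almost no region of these genes differed between E2 and no E2 by the rule used. A region was called higher or lower when it differed by over 1.5-fold after centring and the exact 99.9% counting interval did not include 1, which compares 2 libraries and not 2 conditions. With E2 in wild type none of the 39 regions was called higher, beside 1.55% of all well-covered regions, and none lower, beside 0.684%. In Y537S none was called higher (0.0862% of all) and none lower (0.0833%). In K303R none was called higher (2.05% of all) and 1 lower (1.05%). Wild type had a median ratio of E2 over no E2 of 0.95, Y537S of 0.968 and K303R of 0.920, beside 0.993, 0.993 and 0.978 over all well-covered regions. Of the 39, 9, 14 and 11 were over 1, beside 48.3%, 47.9% and 46.2% of all. These directions turned with the scaling in 2 lines: scaled by the lowest local background, wild type had a member median of 1.02, Y537S of 0.967 and K303R of 1.21, with 22, 14 and 33 of 39 over 1, beside 63.5%, 47.7% and 87.2% of all. The shares called are so low over all regions that the lack of calls at 39 regions says nothing particular about these genes.

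The 1 region called with E2 was GRHL2 region 23 (8:101633611-101634163, inside the span). It had 116 fragments in K303R without E2 and 64 with E2, a centred ratio of 0.448 (0.325 to 0.612). In wild type it had 98 and 65, a ratio of 0.650 (0.468 to 0.899), and in Y537S 50 and 82, a ratio of 1.45 (1.01 to 2.10), neither of them called. The call held when the ratio was centred on the median of the well-covered regions in a 5 Mb window around it (0.519, the local centring below), when libraries were scaled by their lowest local background (0.588) and when they were centred on the median ratio (0.458).

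Within a line, some regions were listed in 1 treatment alone, and at most 43 fragments were counted there. In wild type these were 5 regions with E2 only (5.15% of the 97 member regions listed in that line, beside 12.2% of all regions) and 11 without E2 only (11.3%, beside 15.5%). In Y537S they were 12 with E2 only (13.5% of 89, beside 11%) and 7 without E2 only (7.87%, beside 14.5%). In K303R they were 4 with E2 only (4.71% of 85, beside 15.7%) and 8 without E2 only (9.41%, beside 15%). The highest counts were 43 at EHF region 3, which within K303R was listed with E2 only, 42 at GRHL2 region 16, within K303R without E2 only, and 41 at GRHL2 region 21, within Y537S with E2 only. None of these patterns was shared by all 3 lines: no region was listed in the 3 E2 libraries alone, and none in the 3 libraries without E2 alone. GRHL2 region 5 was listed only with E2 in wild type and K303R, with 22 and 23 fragments. By receptor, 5 regions were listed in both wild-type libraries alone (at EHF, GRHL1 and RAB25, at most 17 fragments), 2 in both K303R libraries alone (at CDH1 and ESRP1, at most 29), and none in the 4 mutant libraries alone. The shares of all regions with these patterns across lines were not counted, so the numbers are not read as a trait of these genes. The lowest count of any listed peak was 5 or 6 fragments per library.

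The mutants differed from wild type at single regions, in both directions. Without E2, Y537S was higher than wild type at 3 of the 39 regions (beside 8.05% of all well-covered regions) and lower at 5 (beside 9.15%). With E2 it was higher at 4 (6.06%) and lower at 4 (8.59%). K303R was higher at 7 (5.49%) and lower at 1 (5.86%) without E2, and higher at 7 (6.33%) and lower at 2 (7.89%) with E2. For Y537S these numbers are close to the share of all regions. The split of calls turned with the scaling. Scaled by the lowest local background, Y537S without E2 was higher at 5 (beside 17.3% of all) and lower at 0 (3.44%). With E2 it was higher at 5 (11.8%) and lower at 2 (4.55%). K303R scaled so was higher at 1 (0.642%) and lower at 2 (22.7%) without E2. With E2 it was higher at 5 (3.53%) and lower at 2 (11.5%). That scaling moved the median log2 ratio of all regions to 0.22 and 0.12 for Y537S and to -0.39 and -0.09 for K303R. With local centring, Y537S was higher at 4 (beside 8.02% of all) and lower at 1 (6.51%) without E2. Its calls with E2 were then 4 higher (6.54%) and 4 lower (6.03%). K303R with local centring was higher at 2 (3.78%) and lower at 2 (5.11%) without E2. Its calls with E2 were then 4 higher (4.29%) and 3 lower (6.69%). The Y537S lists also carry another tag in their peak names than the wild-type and K303R lists, and whatever that tag marks cannot be told apart from the receptor. Both mutants were compared with the same wild-type libraries.

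**Figure D4:**
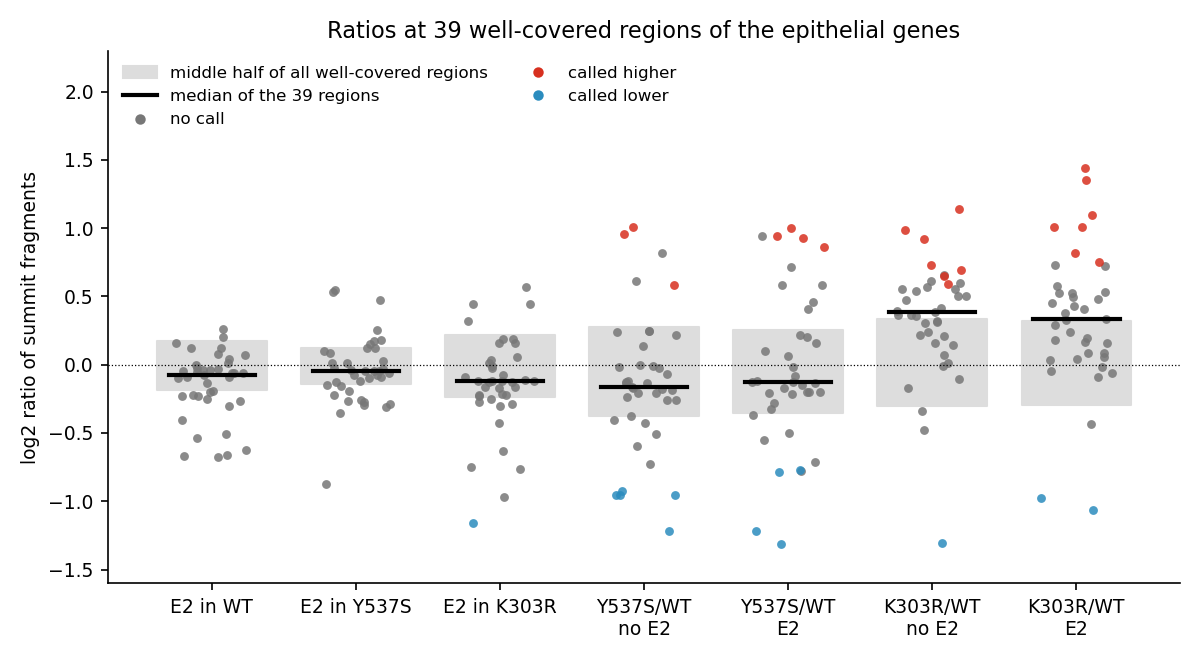
Centred log2 ratios of summit fragments (y axis) at the 39 well-covered regions in 7 comparisons of library pairs (x axis). Each point is a region, coloured where called, the black line is the median of the 39, and the grey box spans the lower to the upper quartile of all 33626 well-covered regions. The E2 comparisons hold 1 call, and the medians of K303R over wild type (0.38 without E2 and 0.33 with E2) lie above those of all regions (0.04 and 0.05).

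Over the whole set, most ratios of K303R to wild type were above 1 with the main centring. Without E2, 33 of 39 regions had a ratio to wild type over 1, with a median of 1.30, and with E2 32 of 39, with a median of 1.26. Of all well-covered regions, 53.9% and 54.3% were over 1 (medians 1.03 and 1.03), and of the 23876 within 25 kb of any protein-coding gene, 58.9% and 60.1%. With local centring, against the surroundings of the genes, 25 and 22 of the 39 were over 1, with medians of 1.05 and 1.03. The median ratio over the well-covered regions of chromosome 8 was 1.16 without E2 and 1.13 with E2, and of chromosome 16, with ESRP2 and CDH1, 1.14 and 1.15. Scaled by the lowest local background, 17 of 39 were over 1 without E2, where 17.8% of all regions were, and 27 with E2, where 41.7% were. For Y537S over wild type the medians were 0.893 without E2 and 0.915 with E2, beside 0.959 and 0.958 over all regions, with 10 and 15 of 39 over 1, beside 44.8% and 44.2% of all. Scaled by the lowest local background the direction turned, with medians of 1.08 and 1.04 and with 28 and 23 of 39 over 1, beside 68.3% and 61.0% of all. What underlies a ratio shared by neighbouring regions was not tested.

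Among the transcription factor genes, GRHL2 held the largest number of called regions, 7, and also the most well-covered regions, 11. The others had 2 of 2 called at GRHL1, 3 of 4 at EHF and 1 of 5 at ELF3. The share of all well-covered regions called in any comparison was not counted. Region 8 (8:101515392-101516069), in the span, had 102 and 104 fragments in wild type without and with E2, 52 and 46 in Y537S, and 164 and 185 in K303R, so the 3 lines did not overlap. The ratio of Y537S to wild type was 0.515 (0.361 to 0.726) without E2 and 0.403 (0.278 to 0.575) with E2, and that of K303R was 2.20 (1.71 to 2.85) and 2.02 (1.58 to 2.59). With local centring the Y537S ratio without E2 was 0.570 and no longer called, as with background scaling (0.624), and the K303R ratios were 1.61 and 1.60 and still called. Its local background moved the same way, 8.58 and 8.34 in wild type, 4.47 and 4.60 in Y537S, and 12.2 and 11.8 in K303R. Region 20 (8:101607782-101608317) was lower in Y537S with E2, at 0.580 (0.416 to 0.803), and higher in K303R without E2, at 1.98 (1.5 to 2.64). The first was not called when scaled by the lowest local background (0.657) or centred on the median ratio (0.605), and the second not with local centring (1.45) or background scaling (1.47). Region 23 without E2 was lower in Y537S, at 0.515 (0.359 to 0.732), and higher in K303R, at 1.62 (1.23 to 2.14). Neither was called with local centring (0.571 and 1.19) or background scaling (0.625 and 1.2), and the K303R ratio was also not called when centred on the median ratio (1.57). The remaining GRHL2 calls were in 1 comparison each: region 7 lower (0.587) and region 18 higher (1.91) in Y537S with E2, region 6 higher in K303R without E2 (1.51), and region 24 higher in K303R with E2 (2.01). With local centring the ratio of region 6 was 1.10 and not called, and with background scaling that of region 7 was 0.666 and not called. The calls at regions 18 and 24 held under all 4 ways of centring.

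At ELF3 only region 5 was called, lower in Y537S in both treatments, with ratios of 0.429 (0.272 to 0.661) without E2 and 0.430 (0.277 to 0.655) with E2. Scaled by the lowest local background the first was 0.520 and not called, and the second held. The 2 strong ELF3 regions kept ratios to wild type of 0.870 to 1.30 in the 4 mutant comparisons. At EHF, region 14 without E2 was lower in Y537S, at 0.516 (0.354 to 0.744), and higher in K303R, at 1.66 (1.24 to 2.22); with local centring neither was called (0.554 and 1.49). EHF region 13 was lower in Y537S without E2 (0.528), where its summits spread over 473 bp, and was not called under any of the 3 other centrings (0.550 to 0.640). EHF region 8 was lower in K303R with E2 (0.509), under each of the 4. GRHL1 region 6 was lower in K303R in both treatments, at 0.405 (0.258 to 0.619) and 0.477 (0.321 to 0.697), under each of the 4 ways of centring. GRHL1 region 2 was higher in K303R with E2, at 2.14 (1.41 to 3.30), with the summit spread given above, and was not called with local centring (1.94) or background scaling (1.95).

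At the splicing factor genes the calls were all toward more binding in a mutant. ESRP2 region 6 was higher in Y537S, at 2.01 (1.54 to 2.64) without E2 and 1.92 (1.45 to 2.57) with E2, and in K303R with E2, at 1.76 (1.30 to 2.39). The K303R ratio was not called with local centring (1.46) or background scaling (1.60). ESRP2 region 7 (16:68244217-68245150), beside it, had wild-type counts of 86 and 105 fragments, with 165 and 153 in Y537S and 93 and 156 in K303R, and was higher in Y537S without E2, at 1.94 (1.48 to 2.55), and in K303R with E2, at 1.68 (1.31 to 2.18), not called with local centring (1.40). The local background over these 2 regions was 8.42 to 9.18 in wild type, 16.1 to 17.1 in Y537S, 9.78 to 10.3 in K303R without E2 and 14.2 to 14.6 in K303R with E2. ESRP2 region 2 was higher in K303R without E2, at 1.57 (1.30 to 1.89), but at 1.25 with local centring was not called. ESRP1 region 4 was higher in K303R, at 1.89 (1.35 to 2.66) without E2 and 2.56 (1.84 to 3.60) with E2; with local centring the ratios were 1.77 and 2.59, and the first was no longer called when scaled by the lowest local background (1.40).

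Among the traffic and adhesion genes, RAB25 alone had calls. Region 4 was higher in Y537S, at 1.5 (1.18 to 1.92) without E2 and 1.82 (1.40 to 2.38) with E2. Region 6 (1:156071581-156071921), with 47 and 46 fragments in wild type, 82 and 101 in Y537S, and 40 and 67 in K303R, was higher in Y537S with E2, at 2.00 (1.40 to 2.90). Region 5 (1:156070169-156070548), with 40 and 35 in wild type, 47 and 74 in Y537S, and 46 and 84 in K303R, was higher in K303R with E2, at 2.72 (1.81 to 4.16). Region 7, the strongest, was not called, with ratios of 1.06 to 1.16 in the 4 mutant comparisons. CDH1 and CLDN4 had well-covered regions and no call in any of the 7 comparisons. EPCAM had no region that could be compared.

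In all there were 34 calls at 20 of the 39 regions, and 18 of the calls, at 13 regions, held under all 4 ways of centring. How many of all well-covered regions were called in any comparison, or held so, was not counted. These totals therefore say nothing particular about these genes. The direction held for all 34, but background scaling and centring on the median ratio could not have turned it. They moved ratios by less than the 1.5-fold that a call needs. Regions called the same way in both treatments were ESRP2 region 6 and RAB25 region 4, higher in Y537S (2 of 39, beside 3.34% of all), ELF3 region 5 and GRHL2 region 8, lower in Y537S (2 of 39, beside 4.79%), ESRP1 region 4 and GRHL2 region 8, higher in K303R (2 of 39, beside 2.58%), and GRHL1 region 6, lower in K303R (1 of 39, beside 3.54%). For ELF3 region 5 and GRHL2 region 8 in Y537S and ESRP1 region 4 in K303R, the call without E2 was lost under at least 1 other centring, as given above. No member region was called in opposite directions in the 2 treatments.

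**Figure D5:**
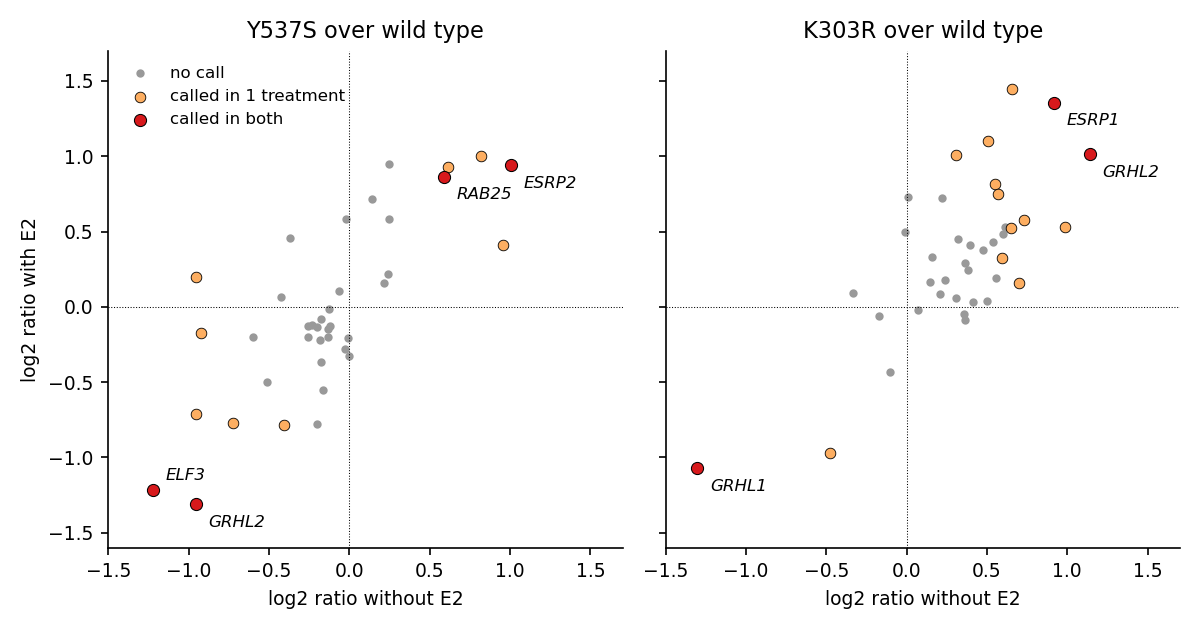
Centred log2 ratio of each mutant to wild type without E2 (x axis) and with E2 (y axis) at the 39 well-covered regions, Y537S on the left and K303R on the right. Regions called in both treatments are red and named by gene: RAB25 and ESRP2 higher and ELF3 and GRHL2 lower in Y537S, and ESRP1 and GRHL2 higher and GRHL1 lower in K303R.

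A further 58 genes were taken from 3 lists of epithelial genes and 1 of mesenchymal transition genes, and are set beside the 29.7% to 32.1% of protein-coding genes near a strong peak per library. Of 17 tight junction and polarity genes, 6 to 9 per library were near a strong peak, and LLGL2, CGN, LSR, PARD6B and PATJ were so in all 6. LLGL2, a regulator of apical-basal polarity, had wild-type counts of 319 and 301 fragments, with 277 and 298 in Y537S and 289 and 307 in K303R at its strongest region. Of 13 adherens junction and desmosome genes, 4 or 5 were near a strong peak, close to that share, in all 6 libraries PKP3, EVPL, DSP and NECTIN1. PKP3, which encodes a desmosomal plakophilin, had 327 to 373 fragments. Of 16 other epithelial genes, 7 to 11 were near a strong peak, and the 5 with the most fragments among the 6 that were so in every library were ST14, GRHL3, SPINT2, OVOL2 and PRSS8. Of 12 genes of the mesenchymal transition, 2 to 4 were near a strong peak, near or below that share, in all 6 libraries SNAI1 and TCF4. SNAI1, a repressor of CDH1, had 201 to 252 fragments at a region 750 bp from its span.

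The ratios of K303R to wild type in these lists depended on the centring. With the main centring, the median log2 ratio was 0.33 without E2 and 0.34 with E2 at the 49 well-covered regions of tight junction and polarity genes, 0.18 and 0.28 at the 30 of adherens junction and desmosome genes, and 0.38 and 0.31 at the 38 of other epithelial genes. At the 19 regions of mesenchymal genes it was -0.13 and -0.36, beside 0.04 and 0.05 over all well-covered regions. With local centring the medians were 0.12 and 0.07, 0.03 and 0.15, 0.16 and 0.17 for the 3 epithelial lists in that order, and -0.11 and -0.18 for the mesenchymal genes. Scaled by the lowest local background, the 3 epithelial medians without E2 were below 0, at -0.11, -0.26 and -0.05, where the median of all regions was -0.39, and the mesenchymal median was -0.57. Calls in K303R without E2 were 6 higher and none lower for the tight junction list, 2 and none for the adherens junction list, 4 and none for the other epithelial genes, and 1 higher and 3 lower for the mesenchymal genes (5.49% and 5.86% of all regions). With E2 they were 5 higher and none lower, 1 and none, 4 and 1, and none and 1 (6.33% and 7.89%).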

How the data were processed

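ERα ChIP-seq peak lists of 6 libraries, 1 per receptor and treatment, were grouped by sample title. Per the submitters' processing notes, the tools were MACS2, Bowtie2, Picard, SAMtools and bedtools, with no versions named, and the build was hg38. Neither the control library nor the peak threshold is given in the sources used here. In the columns of the narrowPeak format, each deposited list gives, as the authors' peak caller computed them, the fold over background, which is a ratio, and p and q as a −log10 p-value and its −log10 q-value, and a deposited score that was not used. Fold and p are the authors' own values, called on each library separately.

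Fragments at each summit were solved from the fold (pseudocount 1) and the Poisson p-value, and matched the deposited −log10 p within 0.01% for 100% of peaks. The solver and the calls were tested on simulated data. Depth beyond these counts is unknown, and intervals (95% printed, 99.9% for calls) cover counting error only. Regions are on chromosomes 1 to 22 and X. The member genes, the other gene lists and the rules were chosen with earlier results of these data known. All 10 genes are named, with the strongest region, every region called in 2 or more of the 7 comparisons, the region nearest a start or end, and, added after their values were seen, the remaining called regions. No genome sequence was used here, so exons, introns and UTRs were not analysed. Peak names carry 1 tag in the wild-type and K303R lists and another in the Y537S lists, so Y537S cannot be compared with wild type within a tag. Alternatives changed the window, the strong set, the fold, the coverage minimum, the joining of summits and the centring. Python 3.11.15, numpy 2.4.6, scipy 1.17.1 and pandas 2.3.3 were used.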

Additional observations from a re-analysis of the deposited data

Results flagged for a closer look

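At 4 regions the ratios of 2 lines lay on opposite sides of 1 with 95% counting intervals that exclude 1, and at least 1 of the 2 was called. How many of all well-covered regions meet this rule was not counted, so the 4 are not read as a trait of these genes. None of these differences between lines was tested, since each line has 1 library per treatment. At GRHL2 region 23 (8:101633611-101634163), E2 over no E2 was 0.448 in K303R and 1.45 (1.01 to 2.10) in Y537S, and over wild type without E2 Y537S was 0.515 and K303R 1.62. At GRHL2 region 8 (8:101515392-101516069), Y537S over wild type was 0.515 without E2 and 0.403 with E2, and K303R over wild type was 2.20 and 2.02. At EHF region 14 (11:34668110-34668715), Y537S was 0.516 and K303R 1.66 without E2. At GRHL2 region 20 (8:101607782-101608317) with E2, Y537S was 0.580 and K303R 1.44 (1.10 to 1.90). The mutants are compared with the same wild-type libraries, so a high or low wild-type count moves both ratios the same way.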

How the results depend on the processing

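No paired analysis was possible because each group has 1 library, and for the same reason no replicate could be left out. Within 100 kb instead of 25 kb, member peaks numbered 210 and 202 in wild type without and with E2, 183 and 183 in Y537S, and 204 and 198 in K303R, and 8 member genes were near a strong peak in each library. With −log10 p of at least 20 they numbered 56, 53, 52, 50 and 48 in the first 5 of these libraries. With the strongest 5000 peaks, 3 member genes were near one in wild type without E2 and 3 in K303R with E2, and of the 3 other epithelial lists (without the mesenchymal genes) 13 genes in Y537S without E2 and 14 in K303R with E2, where the 10000 gave 22 and 23. With the strongest 10000 by fold, 3 member genes were near one in wild type without E2, 3 in K303R without E2 and 2 in K303R with E2. For windows other than 25 kb, the strongest 5000 and the ranking by fold, the share of all protein-coding genes was not counted. These gene counts are therefore not read as a trait of the genes. For E2 in K303R, 2 of 39 regions were called higher when scaled by the lowest local background, beside 13.97% of all regions. When summits were joined within 200 bp, 2 of 37 regions were called lower in that comparison, beside 1.21% of all. Scaled by the background, Y537S over wild type had 5 higher and 0 lower without E2 and 2 lower with E2, and K303R had 1 higher and 2 lower without E2. With local centring, Y537S had 1 lower without E2, and K303R had 2 higher and 2 lower without E2 and 4 higher with E2. For these scalings of mutant over wild type the shares of all regions stand beside the calls above. With a 2-fold threshold, Y537S had 1 higher (3.99% of all) and 1 lower (4.54%) without E2 and 0 higher (2.33%) and 2 lower (3.94%) with E2. K303R then had 1 higher (1.71%) and 1 lower (3.86%) without E2 and 5 higher (2.18%) and 1 lower (4.88%) with E2. Centring on the median ratio was an alternative chosen after seeing the data. Centred so, Y537S had 4 higher (9.60% of all) and 4 lower (7.53%) without E2 and 5 higher (7.81%) and 2 lower (6.82%) with E2. K303R had 4 higher (4.52%) and 1 lower (6.84%) without E2 and 7 higher (5.18%) and 2 lower (9.05%) with E2. The cause of these changes was not tested; the 2-fold threshold and the shorter lists of strong peaks are stricter by construction. No called ratio of a strongest region changed direction under the centrings tried. The background and median-ratio scalings moved ratios too little to turn one. Regions with few fragments could not be compared between libraries, EPCAM among them.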
